A study of Mus musculus with 24 samples.

Results

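The genes that carry the TNF receptor 1 signal toward cell death or survival were followed in sorted cells of the mouse ileum: Tnf, Tnfrsf1a, Tradd, Fadd, Ripk1, Ripk3, Mlkl, Casp8, Cflar and Birc3. They were chosen by name, and all 10 were found among the 39056 genes of the count table through their GENCODE M21 symbols. Bulk RNA-seq was made from sorted CD45+ (hematopoietic) cells and from CD45- cells, the other live cells of the epithelial and lamina propria digests, with 3 libraries in each of 8 groups and 24 libraries in all. The 4 genotypes crossed Hoil1, either wild type (Hoil1+/+) or deficient (Hoil1-/-), with Il4ra, a chain of the IL-4 and IL-13 receptors, which loxP sites flank in every group. In f/f mice Il4ra is otherwise intact, and in ΔIEC mice a Cre driven by the villin promoter (Vil1) deletes it in intestinal epithelial cells. The mice were C57BL/6, male and female, and 9 to 10.3 weeks old. The Hoil1-/- allele is a model of partial deficiency of HOIL1, the product of Rbck1, and a protein fragment can remain. The replicates are separate samples by their labels, which do not say which CD45+ and CD45- libraries share a mouse, although ages recur across the fractions of a genotype, and p-values measure the spread between these libraries.

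Depth was 14.9 to 76.8 M gene counts in CD45+ libraries (median 47 M) and 6.03 to 68.3 M in CD45- libraries (median 14.8 M). Levels are in CPM, counts scaled to a common library size with TMM factors over all 24 libraries, and all 10 genes passed the filter on low counts in both fractions. Rbck1 checked the genotype labels: it ranged from 90.7 to 159 CPM in Hoil1+/+ and from 5.37 to 15.9 CPM in Hoil1-/- CD45+ libraries, and from 72.8 to 110 CPM and 0 to 7.31 CPM in CD45- libraries. Il4ra ranged from 45 to 156.5 CPM in CD45- libraries, with a log2 fold change of 0.02 between ΔIEC and f/f mice (SE 0.35, adjusted p = 1), and its count covers the whole gene, including any exons outside the deletion. The sort was checked with Ptprc, the gene of CD45, at 250 to 757 CPM in CD45+ and 0 to 16.2 CPM in CD45- libraries. The study left out 3 libraries that stood apart in its principal component analysis, Hoil1-/- f/f library 1 and Hoil1-/- ΔIEC library 3 of CD45+ cells and Hoil1-/- f/f library 3 of CD45- cells. Tests were made on the other 21 and repeated on all 24, and levels are given for all 24.

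TNF, the ligand, binds TNF receptor 1 (Tnfrsf1a), which gathers the adaptor TRADD and the kinase RIPK1 at the membrane. There, ubiquitin chains added by cIAP1, cIAP2 (Birc3) and the LUBAC complex of HOIP, SHARPIN and HOIL1 hold RIPK1 in a complex that activates NF-kappaB. When this brake is missing, RIPK1 can join FADD and caspase-8 (Casp8) to start apoptosis, which cFLIP (Cflar) restrains, or RIPK3 and MLKL, which rupture the membrane in necroptosis. In the intestinal epithelium, loss of caspase-8 or FADD is known to release RIPK3-dependent necroptosis of crypt cells.

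The sequences before the starts of Tnf and Birc3 are shown because these were the members whose levels separated the fractions without overlap. Each run holds the 250 bases before the RefSeq start on GRCm38.p6, written 5′ to 3′ on the strand of the gene, at chr17:35202008-35202257 (minus strand) for Tnf and at chr9:7873171-7873420 (minus strand) for Birc3.
Tnf: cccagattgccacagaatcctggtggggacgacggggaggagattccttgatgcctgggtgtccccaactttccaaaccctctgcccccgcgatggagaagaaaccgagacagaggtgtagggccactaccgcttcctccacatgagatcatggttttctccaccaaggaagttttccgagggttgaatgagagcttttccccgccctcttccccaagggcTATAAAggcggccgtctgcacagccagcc
Birc3: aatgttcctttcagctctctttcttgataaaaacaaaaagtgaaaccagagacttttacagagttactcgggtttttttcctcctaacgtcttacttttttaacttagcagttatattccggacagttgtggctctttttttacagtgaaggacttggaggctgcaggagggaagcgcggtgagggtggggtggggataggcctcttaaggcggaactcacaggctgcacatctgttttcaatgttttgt
Capitals mark the hexamer TATAAA, which was searched on both strands and lies from 29 to 24 bases before the start in Tnf. It was found in 12.4% of the 32851 promoters of this length in the table, and among the 9 members with an entry it was found in Tnf and Cflar. The kappaB consensus, searched by that name on both strands and overlapping no TATAAA here, was in 7.25% of all promoters and in none of the 9 members' windows, which says only that those letters are not in these 250 bases.

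Levels were compared between genes only per length, in CPM per kb of exons joined over all transcripts of a gene. The joined exons were longest in Cflar (12669 bases) and Ripk1 (8344 bases), and the places of both in the order depend on that length. In CD45+ cells Tnfrsf1a was at 59.7 ± 16.2 CPM per kb (SD, n = 12), and it ranked first of the 10 in 10 of 12 libraries. Tnf, at 39.4 ± 25.9 CPM per kb (SD, n = 12), ranked first in the other 2. Birc3 was at 35.5 ± 16.75 and Casp8 at 23.8 ± 4.22 CPM per kb (SD, n = 12), and neighbours among these 4 genes differed by less than the larger SD of the pair, though not always by less than the smaller. Ripk3 at 11.5 ± 2.72 and Tradd at 11.3 ± 1.54 CPM per kb (SD, n = 12) formed the next pair. Below them, Cflar, Ripk1, Fadd and Mlkl had means from 5.97 down to 3.42 CPM per kb, with neighbours closer than their SD.

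In CD45- cells Tnfrsf1a, at 70.55 ± 11.35 CPM per kb (SD, n = 12), ranked first in all 12 libraries. Casp8 at 21.8 ± 6.05 and Tradd at 19.4 ± 11.7 CPM per kb (SD, n = 12) followed and did not differ beyond their spread. Ripk3, Cflar, Mlkl, Fadd, Birc3 and Ripk1 lay between 8.68 and 3.35 CPM per kb. Tnf was last at 1.31 ± 1.49 CPM per kb (SD, n = 12), and ranked lowest in 10 of 12 libraries.

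**Figure D1:**
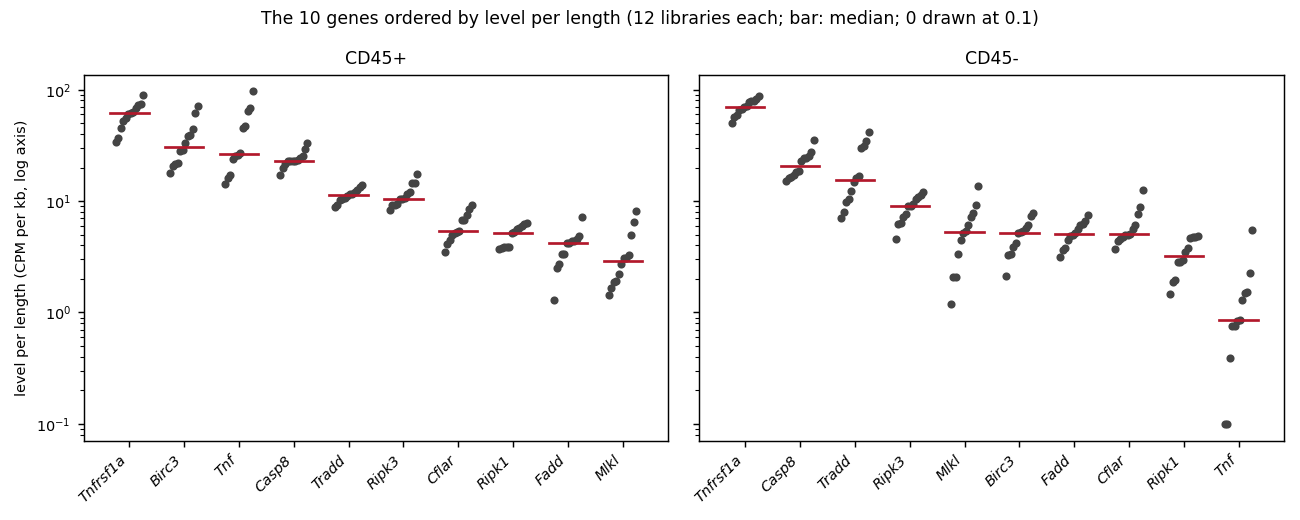
Level of each of the 10 genes per kb of exon in CD45+ (left) and CD45- (right) libraries on a log axis, with a point per library, a red bar at the median of 12 libraries and the genes ordered by that median, the 2 libraries with no Tnf count drawn at the foot of the axis. Tnfrsf1a leads in both fractions, and Tnf falls from a mean of 39.4 to 1.31 CPM per kb between them.

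Which members distinguish hematopoietic from other cells of the ileum was tested in a joint fit of the 21 libraries with a mean for each of the 8 groups. Tnf and Birc3 were much higher in CD45+ cells, Ripk1 was slightly higher, and Tradd and Tnfrsf1a were lower. Of the 10 members, 5 passed the test, 3 higher and 2 lower, where 49.6% of all 18778 genes tested did, 24.5% higher and 25.1% lower. The members' count was therefore near the background of genes that separate the fractions. The median log2 fold change was 0.04 over the members and 0.03 over all genes. In bulk RNA, fewer cells of a type and less RNA per cell cannot be told apart.

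Tnf, which encodes the ligand (chromosome 17, 35199381 to 35202007, minus strand of GRCm38), ranged from 23.1 to 159 CPM in CD45+ libraries, with a median of 43.7 CPM. In CD45- libraries it ranged from 0 to 9.11 CPM with a median of 1.39 CPM, which rests on 0 to 114 counts per library. No CD45+ library overlapped a CD45- library. Tnf was 30.9-fold higher in CD45+ cells, a log2 fold change of 4.95 (SE 0.56, adjusted p = 2.09e-06, edgeR). The 2 CD45- libraries with no Tnf count, Hoil1-/- f/f libraries 1 and 3, allow up to 0.236 and 0.334 CPM, the value of 3 counts. Without Hoil1-/- f/f library 2 of CD45- cells, library 1 with no count stands alone for its group, and the log2 fold change rose to 7.01.

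The highest Tnf level among CD45- libraries, 9.11 CPM in Hoil1+/+ f/f library 1, came with leukocyte markers (Ptprc, Cd52, Cd53, Coro1a and Laptm5) summing to 8.235 CPM in that library, with none of the 5 at 0. Over all CD45- libraries this sum ranged from 1.22 to 39.8 CPM with a median of 9.71 CPM, so that library was below the median. In CD45+ libraries the leukocyte sum was 2954 to 3803 CPM. The part of leukocyte transcripts in the CD45- level of Tnf was not tested.

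Birc3 (chromosome 9, 7848699 to 7873186, minus strand) encodes cIAP2, a ubiquitin ligase of the receptor complex and itself a known NF-kappaB target. It ranged from 90.3 to 357.5 CPM in CD45+ libraries (median 153.8 CPM) and from 10.6 to 39.2 CPM in CD45- libraries (median 26.1 CPM). Here too the fractions did not overlap, so that 2 of the 10 members separated all 24 libraries, against 15.1% of 17903 genes. Birc3 was 7.61-fold higher in CD45+ cells (log2 fold change 2.93, SE 0.21, adjusted p = 2.19e-08).

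The receptor gene Tnfrsf1a (chromosome 6, 125349362 to 125362484, plus strand) was expressed at similar levels in both fractions. It ranged from 88.7 to 233.4 CPM (median 158.7) in CD45+ and from 131 to 227.6 CPM (median 181.9) in CD45- libraries, and the ranges overlapped almost fully. The test gave a small difference, 1.27-fold lower in CD45+ cells (log2 fold change -0.34, SE 0.13, adjusted p = 0.036). This call was fragile: of 30 alternatives it held in 13 and was lost in 17. The log2 fold change stayed negative in all of them, from -0.67 to -0.28. The call held with DESeq2 (-0.42, adjusted p = 0.00101), library totals alone (-0.67, adjusted p = 0.00168), RLE size factors (0.0111) and immunoglobulin genes removed (0.0324). It was lost over all 24 libraries (-0.28, adjusted p = 0.0664), with no filter (adjusted p = 0.111), with the likelihood ratio test (0.0582) and with Xist as a covariate (0.0704). It was also lost when any of 13 single libraries was left out, with adjusted p from 0.0503 to 0.111. These were all CD45+ libraries tested other than library 3 of the Hoil1+/+ f/f and Hoil1+/+ ΔIEC groups, and in CD45- cells Hoil1+/+ f/f libraries 2 and 3, Hoil1+/+ ΔIEC library 3, Hoil1-/- f/f library 2 and Hoil1-/- ΔIEC library 2.

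Tradd (chromosome 8, 105258286 to 105264609, minus strand), the adaptor that binds the death domain of the receptor, was even across CD45+ libraries, from 16.5 to 25.8 CPM (median 21.1). Across CD45- libraries it varied from 13.2 to 77.9 CPM (median 28.9). It was 1.69-fold lower in CD45+ cells (log2 fold change -0.76, SE 0.24, adjusted p = 0.014), and the call held under all 30 alternatives, with log2 fold changes from -1.03 to -0.59. Fadd (chromosome 7, 144577318 to 144582463, minus strand), the adaptor that recruits caspase-8, ranged from 5.09 to 27.95 CPM in CD45+ and from 12.3 to 29.4 CPM in CD45- libraries. The fractions overlapped, and Fadd did not pass (log2 fold change -0.33, 95% interval -0.81 to 0.14, adjusted p = 0.251). It passed without Hoil1-/- ΔIEC library 1 of CD45+ cells (-0.64, adjusted p = 0.0167) and with library totals alone (-0.66, adjusted p = 0.0295).

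Of the 3 genes of the necroptosis branch, Ripk1 (chromosome 13, 34002363 to 34037147, plus strand), the kinase at the fork between survival and death, ranged from 31.1 to 53.3 CPM in CD45+ and from 12.2 to 40.9 CPM in CD45- libraries. The ranges overlapped, with the 7 highest libraries all CD45+. The log2 fold change was 0.56 (SE 0.20, adjusted p = 0.0303). The call was lost with RLE size factors (0.49, adjusted p = 0.0523) and with library totals alone (0.25, adjusted p = 0.444). It was also lost, with adjusted p from 0.0547 to 0.0859, without Hoil1-/- f/f library 2 of CD45- cells or without Hoil1-/- f/f library 3, Hoil1-/- ΔIEC library 1 or Hoil1+/+ ΔIEC library 1 of CD45+ cells.

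Ripk3 (chromosome 14, 55784995 to 55788865, minus strand), the kinase that activates MLKL, ranged from 19.2 to 40 CPM in CD45+ and from 10.4 to 27.7 CPM in CD45- libraries. Its log2 fold change of 0.42 (SE 0.19, adjusted p = 0.0804) did not pass, and passed without Hoil1+/+ f/f library 1 (0.52, adjusted p = 0.0259) or Hoil1+/+ ΔIEC library 1 (0.53, adjusted p = 0.0266) of CD45- cells. Mlkl (chromosome 8, 111311797 to 111338177, minus strand), the executioner that permeabilises the membrane, was the lowest member per length in CD45+ cells, from 3.34 to 18.7 CPM against 2.75 to 31.5 CPM in CD45- libraries. Its log2 fold change was -0.85 (SE 0.36, adjusted p = 0.0623). Mlkl passed with DESeq2 (-0.92, adjusted p = 0.0169), edgeR's likelihood ratio test (-0.85, adjusted p = 0.0388), RLE size factors (-0.92, adjusted p = 0.039) and library totals (-1.14, adjusted p = 0.0317). It also passed when Hoil1-/- f/f library 1 (adjusted p = 0.0218), Hoil1-/- ΔIEC library 3 (0.0295) or Hoil1+/+ ΔIEC library 2 (0.039) of CD45- cells, or Hoil1+/+ f/f library 2 of CD45+ cells (0.0295), was left out.

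Casp8 and its restraint Cflar, neighbours on the plus strand of chromosome 1 (58795374 to 58847503 and 58711508 to 58758884), were at like levels in both fractions. Casp8, the initiator caspase that also cleaves RIPK1 and RIPK3, ranged from 49.1 to 96.4 CPM in CD45+ and from 44.2 to 103.3 CPM in CD45- libraries. Its log2 fold change was 0.03 (95% interval -0.25 to 0.32, adjusted p = 0.993). Cflar, the catalytically inactive relative of caspase-8, ranged from 44.1 to 117.6 CPM and from 46.7 to 160.1 CPM, with a log2 fold change of 0.06 (95% interval -0.31 to 0.42, adjusted p = 0.916). These intervals bound a difference between the fractions at less than 1 log2 unit in either direction for both genes, and neither passed under any of 30 alternatives.

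With library totals in place of TMM scaling, the median log2 fold change of all genes between the fractions moved from 0.03 to -0.27, and the genes called from 4602 higher and 4719 lower to 3072 higher and 5554 lower. The directions of the 5 called members were the same under both scalings. The number of members called fell to 3 without Hoil1-/- f/f library 2 of CD45- cells, Hoil1-/- f/f library 3 of CD45+ cells or Hoil1+/+ ΔIEC library 1 of CD45+ cells.

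**Figure D2:**
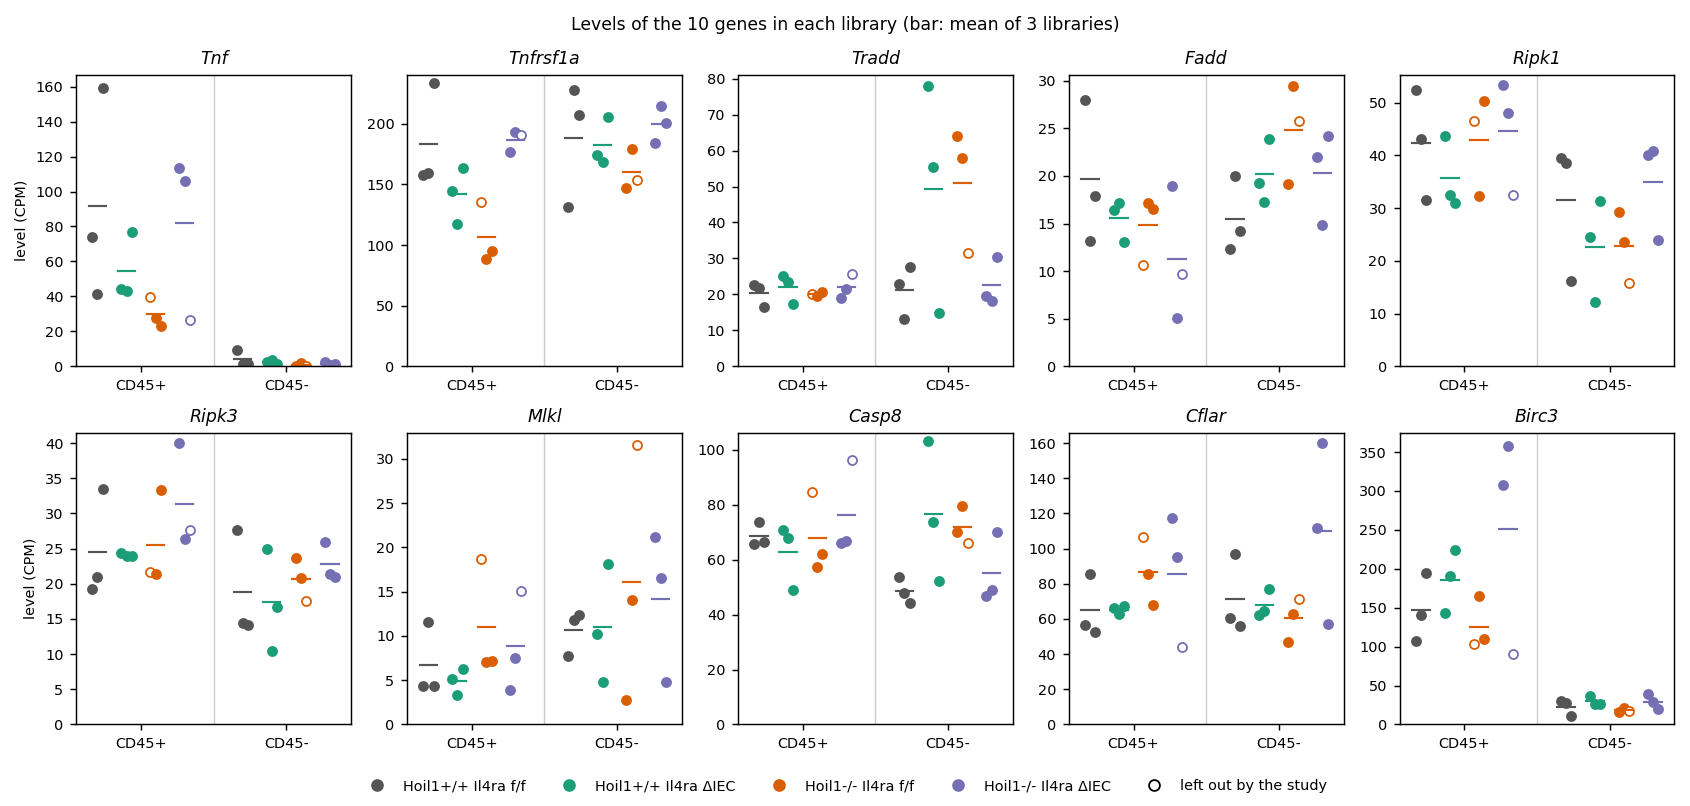
Level of each gene in CPM (linear axis from 0) in the CD45+ and CD45- libraries of the 4 genotypes, with a point per library, open for the 3 libraries left out by the study, and a bar at the mean of 3 libraries. Tnf and Birc3 separate the fractions, at 23.1 to 159 against 0 to 9.11 CPM and 90.3 to 357.5 against 10.6 to 39.2 CPM, while Tradd spreads from 13.2 to 77.9 CPM within CD45- cells.

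Among 34 other genes of the pathway, 18 were higher in CD45+ cells, 5 were lower and 11 did not pass. Their median log2 fold change was 0.61, beside 0.03 over all genes, of which 24.5% were called higher and 25.1% lower. These counts and those by role were not tested against other genes. Of 8 brakes and deubiquitinases, 6 were higher and none lower, including Cyld, which removes linear and Lys63-linked chains (55.4 to 129.7 CPM in CD45+ and 15.8 to 27.5 CPM in CD45- libraries, log2 fold change 2.31, SE 0.14, adjusted p = 3.25e-09), and Otulin, which removes linear chains (2.09, SE 0.25, adjusted p = 2.98e-06). Mapkapk2, a kinase that phosphorylates RIPK1, was also higher (1.502, SE 0.16, adjusted p = 1.12e-06).

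Of 14 adaptors, ubiquitin ligases and kinases, 6 were higher and 2 lower. The higher ones included Birc2, which encodes cIAP1 (log2 fold change 1.46, SE 0.13, adjusted p = 1.5e-07), and Tab2, which binds ubiquitin chains for the kinase TAK1 (1.58, SE 0.15, adjusted p = 2.29e-07). Of 6 ligands and other death receptors, 3 were higher and 2 lower. Fasl, the ligand of Fas, ranged from 2.06 to 50.9 CPM in CD45+ libraries and had no count in any CD45- library, while Tnfrsf10b, the mouse TRAIL receptor, was lower in CD45+ cells (-2.80, SE 0.34, adjusted p = 3.89e-06). Of 6 executioners and other inducers of necroptosis, 3 were higher and 1 lower.

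**Figure D3:**
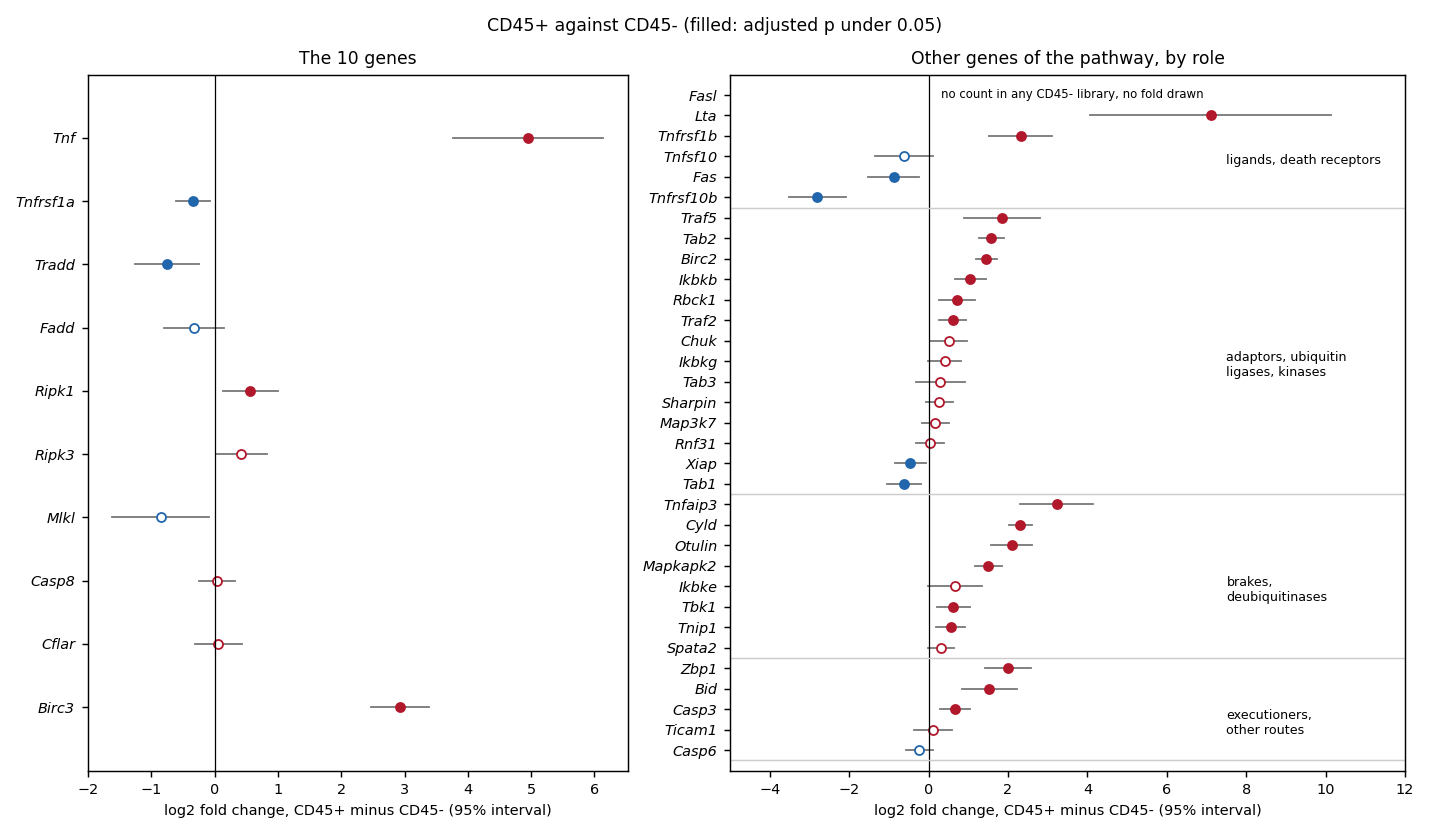
Log2 fold change between CD45+ and CD45- cells with its 95% interval for the 10 genes (left) and other pathway genes grouped by role (right, 1 of the 34 not drawn), filled where the adjusted p was under 0.05, red above 0 and blue below, with no fold drawn for Fasl. Among the 10, Tnf (4.95) and Birc3 (2.93) lie far to the right, and most of the other genes called are on the same side, with 18 of the 34 higher.

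The CD45- fraction is a mixture, and its libraries differed in their parts. The summed level of 8 epithelial markers ranged from 1366 to 18360 CPM, of 8 endothelial markers from 1276 to 7985 CPM and of 7 stromal markers from 416.5 to 8821 CPM, and none of these markers was at 0 in any CD45- library. The fraction is therefore not epithelium alone. A set of 6 genes induced by tissue dissociation ranged from 980.6 to 12710 CPM. Several members moved with these sums, given here as descriptions over 12 libraries that share depth, scaling and digestion.

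Tradd moved with the epithelial sum (Spearman's rho = 0.867) and against the dissociation genes (rho = -0.895). It also moved with the leukocyte (rho = 0.811), plasma cell (0.762) and myeloid (0.664) sums, which ranged in CD45- libraries from 1.22 to 39.8, 53.1 to 948.8 and 8.23 to 74.2 CPM, and against the endothelial sum (-0.797). It was at 77.9 and 55.4 CPM in Hoil1+/+ ΔIEC libraries 1 and 2 and at 64.0 and 57.8 CPM in Hoil1-/- f/f libraries 1 and 2, where the epithelial sum was 15540 to 18360 CPM. In the other 8 libraries Tradd was between 13.2 and 31.4 CPM and the epithelial sum between 1366 and 9275 CPM. Casp8 had rho = 0.825 with the epithelial, 0.685 with the plasma cell and 0.608 with the leukocyte sum, and these same 4 libraries were among its 5 highest, at 103.3, 73.9, 70.1 and 79.6 CPM in that order. Tradd and Casp8 had rho = 0.79 with each other.

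Tnfrsf1a, Cflar and Mlkl ranked against the epithelial sum. Tnfrsf1a had rho = -0.755 with the epithelial, 0.839 with the endothelial and -0.832 with the plasma cell sum. Cflar had rho = -0.678 and 0.734 with the same sums, and its highest levels, 160.1 and 111.9 CPM, were in Hoil1-/- ΔIEC libraries 2 and 1, which had endothelial sums of 7985 and 6318 CPM. Mlkl had rho = -0.559 with the epithelial and 0.839 with the stromal sum, running from 2.75 CPM in the library with the lowest (416.5 CPM, Hoil1-/- f/f library 1) to 31.5 CPM in Hoil1-/- f/f library 3, which the study left out and which had a stromal sum of 7145 CPM. Ripk1 had rho = -0.476 with the epithelial and 0.483 with the endothelial sum. For Fadd, Ripk3 and Birc3, rho with the 3 sums lay between -0.24 and 0.22.

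**Figure D4:**
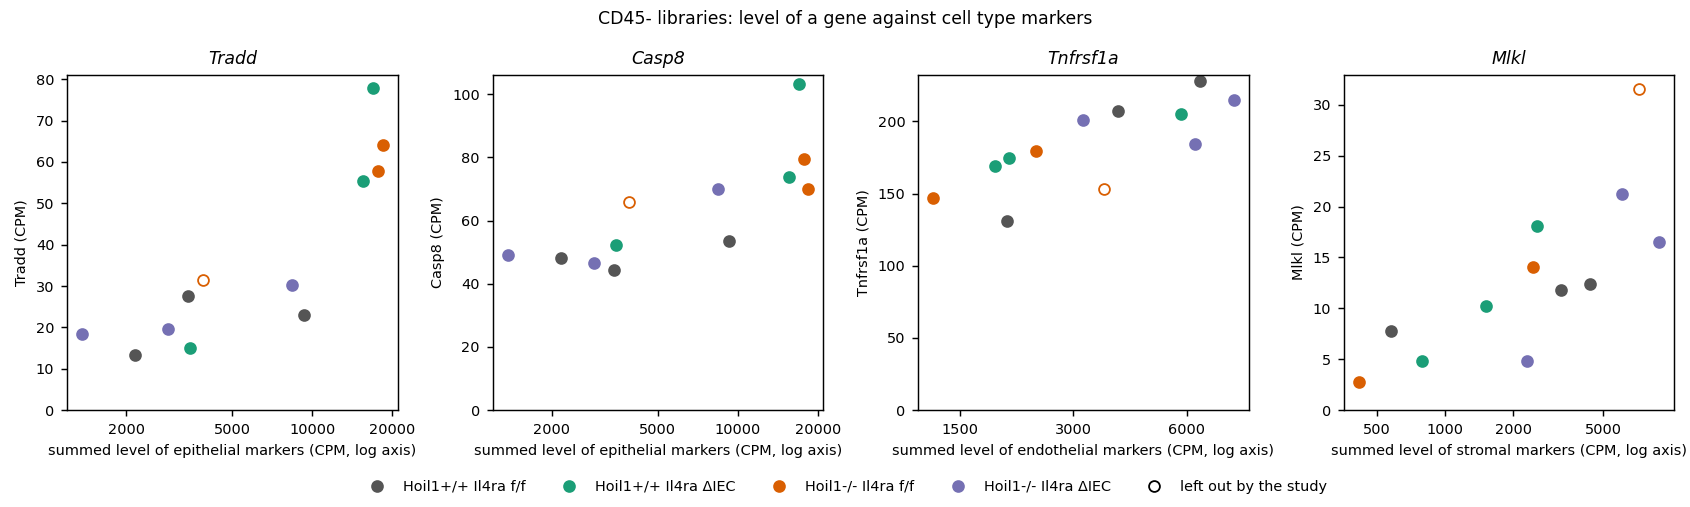
Level in CPM (linear axis) of Tradd, Casp8, Tnfrsf1a and Mlkl in the 12 CD45- libraries against the summed CPM (log axis) of epithelial, epithelial, endothelial and stromal markers, coloured by genotype and open for the library left out by the study. The 4 libraries with epithelial sums of 15540 CPM or more hold the 4 highest Tradd levels, 55.4 to 77.9 CPM.

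Whether loss of HOIL1 changed the members was asked in each fraction, averaged over Il4ra and within each Il4ra genotype. No member passed in any of these comparisons with edgeR's quasi-likelihood test. In CD45+ cells, averaged over Il4ra, 1 of 17029 genes (0.00587%) passed, which was Rbck1, and the only member with an unadjusted p under 0.05 was Cflar (log2 fold change 0.46, SE 0.18, adjusted p = 0.783). DESeq2 and the likelihood ratio test called 126 and 103 genes there and also no member. The other 9 members had log2 fold changes from -0.43 (Tnf) to 0.35 (Birc3).

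Within f/f mice, Tnf and Tnfrsf1a were at lower levels in the CD45+ cells of Hoil1-/- mice. Tnf was at 74.2, 41.3 and 159 CPM in the 3 Hoil1+/+ libraries and at 39.4, 27.8 and 23.1 CPM in the 3 Hoil1-/- libraries, of which the first was left out by the study. Tnfrsf1a was at 157.8, 159.6 and 233.4 CPM against 135.2, 88.7 and 95 CPM. Both genes had no overlap between genotypes, as 5.85% of all genes did, but neither passed. The log2 fold change was -1.85 for Tnf (SE 0.51, adjusted p = 0.836) and -1.01 for Tnfrsf1a (SE 0.25, adjusted p = 0.803).

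With all 6 libraries these values were -1.61 and -0.80, with adjusted p = 1 for both. In the fit without the left-out library, no gene passed (0%), not even Rbck1 (log2 fold change -3.90, SE 0.46, adjusted p = 0.0949). A gene that did not pass was therefore not shown to be unchanged. An unadjusted p under 0.05 was seen for 898 of 17029 genes. The likelihood ratio test called 66 genes and none of the members. DESeq2 called 93 genes, Tnf (-1.87, adjusted p = 0.035) and Tnfrsf1a (-1.02, adjusted p = 0.0158) among them. The highest Tnf library, Hoil1+/+ f/f library 3, also had the highest summed level of the dissociation genes, 11570 CPM, where the other CD45+ libraries had 1404 to 9064 CPM. Without it the Tnf log2 fold change was -1.197 (adjusted p = 0.916). Tnf was lowest in Hoil1-/- f/f library 3, which had the lowest sum of the dissociation genes, 1404 CPM. Over the 12 CD45+ libraries rho with that sum was 0.664 for Tnf and 0.559 for Tnfrsf1a. The part of the dissociation genes in the difference was not tested.

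Within ΔIEC mice Tnf and Tnfrsf1a lay the other way in CD45+ cells, though neither passed. Tnfrsf1a had a log2 fold change of 0.37 (SE 0.24, adjusted p = 0.793). Tnf was at 44.5, 42.9 and 77.0 CPM in Hoil1+/+ and at 113.2, 105.9 and 26.5 CPM in Hoil1-/- libraries, where the last was left out by the study and overlapped (log2 fold change 0.99, SE 0.47, adjusted p = 0.775). Birc3 was at 142.9, 191.1 and 224.4 CPM against 307.3, 357.5 and 90.3 CPM in the same order (0.82, SE 0.31, adjusted p = 0.775). Cflar was at 66.1, 62.7 and 67.2 CPM against 117.6, 95.3 and 44.1 CPM (0.69, SE 0.25, adjusted p = 0.775). Within f/f mice the log2 fold change was -0.11 for Birc3 (SE 0.32) and 0.23 for Cflar (SE 0.25). In Tnf, Birc3 and Cflar the left-out library of the Hoil1-/- group was the lowest of the 6 and the 2 others were the highest. With that library included, the log2 fold changes were 0.60 for Tnf, 0.45 for Birc3 and 0.41 for Cflar, with adjusted p = 1 for each. The endothelial sum moved with Birc3 across the 12 CD45+ libraries (rho = 0.846). It was 147.2, 187.8 and 67.4 CPM in Hoil1-/- ΔIEC libraries 1, 2 and 3, with 4 of its 8 markers at 0 in the last, and 81.9 to 118.8 CPM in the Hoil1+/+ ΔIEC libraries. Over all CD45+ libraries the epithelial sum was 74 to 550.8, the T cell sum 209.3 to 2050, the myeloid sum 3894 to 16280 and the plasma cell sum 8444 to 47610 CPM, and the part of these mixtures in the genotype values was not tested. Over all 6 libraries, only Tnfrsf1a and Ripk3 had no overlap among the 10 members, both higher in Hoil1-/- mice, against 10.4% of all genes. In the fit without the left-out library, no gene passed (0%), not even Rbck1 (log2 fold change -3.71, SE 0.45, adjusted p = 0.115). An unadjusted p under 0.05 was seen for 1035 genes. DESeq2 called 159 genes and the likelihood ratio test 51, with no member in either.

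The difference between these Hoil1 effects was tested as the interaction with Il4ra. In CD45+ cells it was 2.84 for Tnf (SE 0.69, adjusted p = 0.591) and 1.38 for Tnfrsf1a (SE 0.35, adjusted p = 0.591) on the log2 scale, and for the other 8 members from -0.15 to 0.94. No gene passed (0%), while 1193 of 17029 had an unadjusted p under 0.05. DESeq2 called 160 genes including Tnf (2.90, adjusted p = 0.0116) and Tnfrsf1a (1.43, adjusted p = 0.0174), and the likelihood ratio test called 68 including Tnf (adjusted p = 0.0393). Over all 12 CD45+ libraries the interactions were 2.21 for Tnf and 1.23 for Tnfrsf1a, with adjusted p = 1 for both.

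Deletion of Il4ra in the epithelium, averaged over Hoil1, called 1 gene in CD45+ cells (0.00587%) and none of the members. Birc3 came nearest, at 102.9 to 195.2 CPM (median 124.9) in f/f and at 90.3 to 357.5 CPM (median 207.8) in ΔIEC libraries (log2 fold change 0.82, SE 0.23, adjusted p = 0.299). The ranges overlapped. DESeq2 called it (0.81, adjusted p = 0.0269) among 341 genes, and the likelihood ratio test called 201 genes and no member. With library totals alone Birc3 moved to 1.15 (adjusted p = 0.23), and the median of all genes moved alongside it, from -0.01 to 0.32. Over all 12 CD45+ libraries Birc3 was at 0.66 (adjusted p = 0.888).

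**Figure D5:**
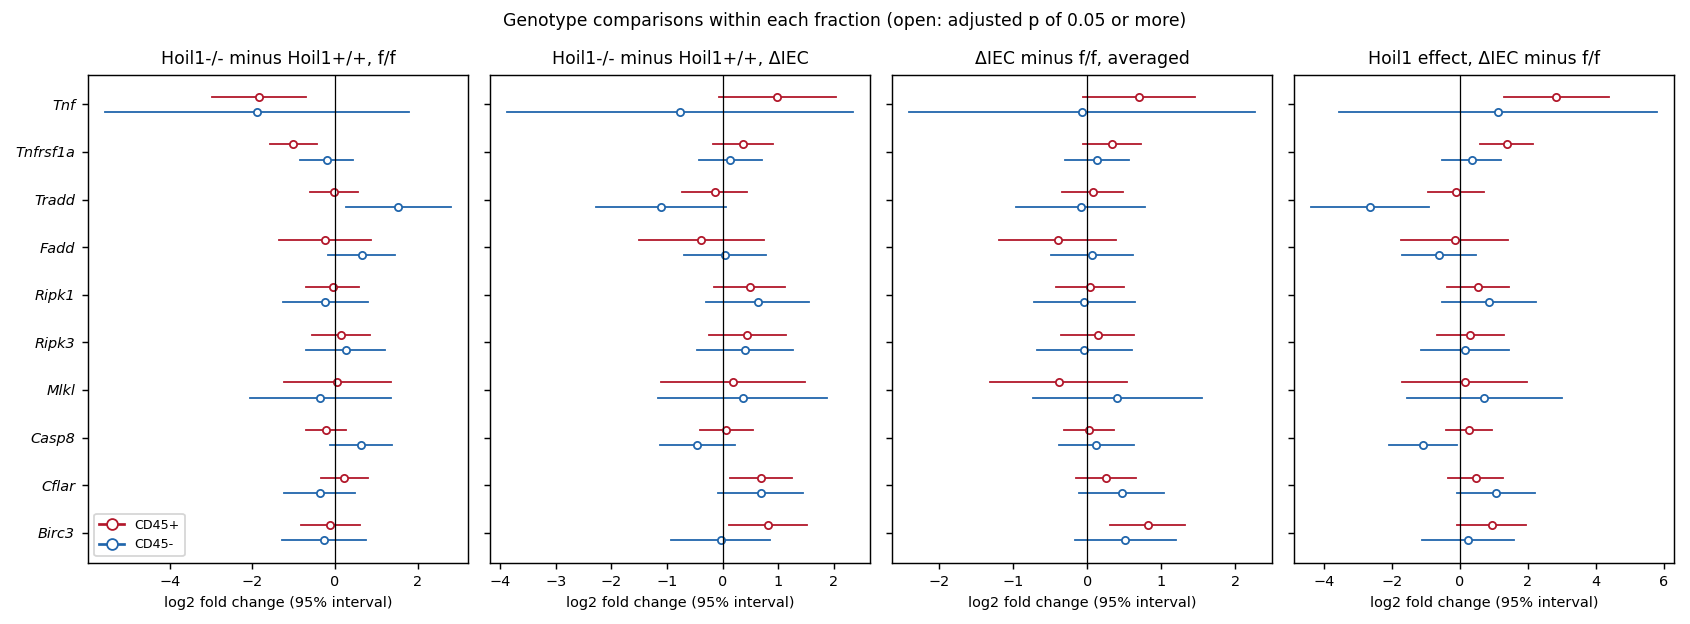
Log2 fold change with its 95% interval for the 10 genes in CD45+ (red) and CD45- (blue) cells, for loss of HOIL1 in f/f and in ΔIEC mice, for deletion of Il4ra averaged over Hoil1, and for the interaction. All points are open, since none had an adjusted p under 0.05, and the widest intervals are those of Tnf in CD45- cells, from -5.58 to 1.79 in f/f mice.

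In CD45- cells, loss of HOIL1 averaged over Il4ra called 3 of 16453 genes (0.0182%) and no member, none of which had an unadjusted p under 0.05. The log2 fold changes of the 9 members other than Tnf ranged from -0.15 (Birc3) to 0.34 (Fadd). That of Tnf was -1.33 with a 95% interval from -3.72 to 1.07, so that only a large difference was detectable. It rests on 0 to 114 counts and 0 to 9.11 CPM per library, and the parts of depth and of spread between libraries were not tested. DESeq2 and the likelihood ratio test called 168 and 135 genes and no member.

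Within f/f mice, Tradd was at 22.96, 13.25 and 27.5 CPM in Hoil1+/+ and at 64.0, 57.8 and 31.4 CPM in Hoil1-/- CD45- libraries, the last left out by the study. Casp8 was at 53.5, 48.0 and 44.2 CPM against 70.1, 79.6 and 66.0 CPM. These were the 2 members with no overlap, both higher in Hoil1-/- mice, where 13.3% of all genes had none. Neither passed: the log2 fold change was 1.53 for Tradd (SE 0.58, adjusted p = 0.361) and 0.63 for Casp8 (SE 0.34, adjusted p = 0.415). In all, 6 genes passed (0.0365%), DESeq2 called 613 and the likelihood ratio test 350, with no member in either. With all 6 libraries the values were 1.29 for Tradd (adjusted p = 0.547) and 0.60 for Casp8 (adjusted p = 0.561).

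Within ΔIEC mice, Tradd was at 77.9, 55.4 and 14.9 CPM in Hoil1+/+ and at 19.6, 18.3 and 30.3 CPM in Hoil1-/- CD45- libraries. The groups overlapped and the log2 fold change was -1.11 (SE 0.53, adjusted p = 0.628). Casp8 was at 103.3, 73.9 and 52.4 CPM against 46.6, 49.1 and 70.1 CPM (-0.45, SE 0.31, adjusted p = 0.688). No member was without overlap, against 10.6% of all genes, and 1 gene passed (0.00608%), again Rbck1. DESeq2 called 138 genes and the likelihood ratio test 62, with no member in either.

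The interaction in CD45- cells was -2.64 for Tradd (SE 0.79, adjusted p = 0.142) and -1.08 for Casp8 (SE 0.46, adjusted p = 0.216). No gene passed (0%), but 3409 had an unadjusted p under 0.05 and the median of all genes was 0.29. Tradd was called by DESeq2 (-2.73, adjusted p = 0.028, among 1466 genes), by the likelihood ratio test (adjusted p = 0.0302, among 1223 genes) and without Hoil1+/+ ΔIEC library 3 (-3.08, adjusted p = 0.0238). The epithelial sum was 2160 to 9275 CPM in Hoil1+/+ f/f, 3474 to 16910 in Hoil1+/+ ΔIEC, 3900 to 18360 in Hoil1-/- f/f and 1366 to 8404 in Hoil1-/- ΔIEC libraries. With the mean log2 level of the 8 epithelial markers as a covariate, the interaction was -0.52 for Tradd (adjusted p = 0.986) and -0.13 for Casp8 (adjusted p = 1), and the Hoil1 effect on Tradd within f/f mice was 0.43 (adjusted p = 0.927). Epcam, which is among these markers, itself had an interaction of -2.74 (SE 0.82, adjusted p = 0.142). The covariate thus varies with the genotype groups, and this fit cannot tell the epithelial share and genotype apart. The sum of the dissociation genes was 5522 to 12710 CPM in Hoil1+/+ f/f and 980.6 to 2194 CPM in Hoil1-/- f/f libraries, without overlap. It was 2830 to 8483 CPM in Hoil1+/+ ΔIEC and 3535 to 6172 CPM in Hoil1-/- ΔIEC libraries. Over the 12 CD45- libraries its rho was -0.895 with Tradd and -0.657 with Casp8. The parts of the epithelial share and of the dissociation genes in the Tradd and Casp8 values were not tested.

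Deletion of Il4ra, averaged over Hoil1, called no gene in CD45- cells (0%), with 971 at an unadjusted p under 0.05, and DESeq2 called 159 and the likelihood ratio test 143. No member was called by any of the 3 or had an unadjusted p under 0.05, and the largest log2 fold change among them was that of Birc3 (0.51, 95% interval -0.17 to 1.19, adjusted p = 0.839).

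Whether the effect of HOIL1 loss differed between the fractions was tested in the joint fit, where 5 of 18778 genes passed (0.0266%) and no member did. No member had an unadjusted p under 0.05, nor was any called by DESeq2, with 262 genes, or the likelihood ratio test, with 206. The largest differences in size were 0.80 for Tnf (95% interval -1.21 to 2.81), -0.62 for Fadd (-1.57 to 0.33) and 0.53 for Birc3 (-0.32 to 1.37). Among the 34 other pathway genes, the genotype comparisons called Rbck1 alone, lower in Hoil1-/- mice by 3.81 log2 units in CD45+ cells (SE 0.32, adjusted p = 0.0069) and by 4.23 in CD45- cells (SE 0.33, adjusted p = 0.00106).

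As a description of likeness, the gene whose CPM had the highest Spearman correlation with each member was found over the 12 libraries of a fraction, among 10267 genes in CD45+ and 11081 in CD45- cells with a mean of at least 5 CPM. In CD45+ cells it was Ccrl2, a receptor for the attractant chemerin, for Tnf (rho = 0.958) and Hspa5, an endoplasmic reticulum chaperone, for Tnfrsf1a (0.93). For Birc3, Mef2d, a transcription factor, and Rel were tied (0.979 each), and for Cflar it was Ttll3 (0.96). In CD45- cells it was Prdx1, a peroxiredoxin, for Tradd (0.958), Fis1, a mitochondrial fission protein, for Casp8 (0.944), Ube2l6 for Fadd (0.965) and Manba, a lysosomal mannosidase, for Mlkl (0.951). The libraries of a fraction share depth, scaling and cell mixture, and a best match among so many genes is given with no test. Among all pairs of members in CD45+ cells, rho was highest for Tnf and Birc3 (0.741) and lowest for Fadd and Mlkl (-0.804). In CD45- cells the same pairs had rho = 0.697 and 0.371. Hoil1-/- f/f library 1 and Hoil1-/- ΔIEC library 3 of CD45+ cells, left out by the study, had the highest Mlkl levels, 18.7 and 15.1 CPM. Fadd was at 10.6 and 9.71 CPM there.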

How the data were processed

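RNA from sorted CD45+ and CD45- ileal cells was measured by bulk RNA-seq in 24 mouse libraries. The deposited values are raw counts with no normalization, made by the authors with cutadapt for trimming, STAR for alignment to mm10 (GRCm38) and featureCounts for assigning reads to ENSEMBL genes. Tool versions, strand setting and treatment of shared reads are not given in the sources used here, so reads of overlapping genes cannot be told apart. No column was left unused (0). Of 39056 gene IDs, 34299 matched GENCODE M21 with their version, 4573 without it and 184 did not match.

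Groups came from the sample labels. The members and lists were chosen with earlier results of these data known. Tests used edgeR 4.0.16 (R 4.3.3) and its quasi-likelihood F-test, two-sided, on counts with TMM scaling, after filtering genes with filterByExpr (min.count 10, min.total.count 15). Benjamini-Hochberg adjustment covered all genes tested and the threshold was 0.05. Each fraction was fitted with 4 genotype means (10 CD45+ and 11 CD45- libraries, without the 3 libraries the study left out), and both fractions together with 8 group means over 21 libraries. All p-values in the text come from these fits or from the named alternatives. Intervals are at 95%. Depth of 6.03 to 76.8 M counts per library sets the value of 3 counts, the floor given for a library at 0, and floors cover counting error only. Exon lengths joined all exons of a gene, and promoters of 9 members, all but Tradd, came from RefSeq (GRCm38.p6).

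Named genes were the 10 members, the genes Rbck1, Il4ra, Ptprc and Epcam as checks, up to 8 genes of a 34-gene pathway list per contrast by smallest adjusted p among those past the threshold (1 of these is not reported here), and the gene most like each member by Spearman correlation among genes with a mean of at least 5 CPM. Alternatives were all libraries, RLE factors, library totals only, no filter, the edgeR likelihood ratio test, DESeq2 1.42.0, removal of immunoglobulin genes, Xist or epithelial markers as covariates, genotype and age as a block in the joint fit (added after seeing the data), and each library left out in turn. The fits were tested on simulated counts. Figures used matplotlib 3.10.9.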

Additional observations from a re-analysis of the deposited data

Results flagged for a closer look

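Among the 6 libraries of a Hoil1 genotype in a fraction, 6 of 40 groups tested had an end library separated from the rest by more than Dixon's 95% critical value. Its rate of about 1 in 20 holds for independent, normally distributed values from a single population. These groups hold CPM on the linear scale, pool f/f and ΔIEC libraries and include those left out by the study. The genes also share the same libraries, so the number of groups flagged cannot be weighed against that rate. All 6 were in Hoil1+/+ mice, 5 of them in CD45+ cells. In CD45- cells, Tnf was at 9.108 CPM in Hoil1+/+ f/f library 1, and the next library was at 3.69 CPM. In CD45+ cells, Hoil1+/+ f/f library 3 was highest for Tnf, at 159 CPM with the next at 77 CPM, and for Ripk3, at 33.4 CPM with the next at 24.3 CPM. Fadd was at 27.95 CPM in Hoil1+/+ f/f library 1 of CD45+ cells, above 17.9 CPM in the next. Mlkl was at 11.5 CPM in library 2 of the same group, above 6.29 CPM. Casp8 was lowest in Hoil1+/+ ΔIEC library 3 of CD45+ cells, at 49.1 CPM, with the next at 65.7 CPM. With edgeR's quasi-likelihood test none of 30 tests of a difference between Hoil1 effects in members passed, whereas DESeq2 called Tnf and Tnfrsf1a in CD45+ and Tradd in CD45- cells, and the likelihood ratio test called Tnf in CD45+ and Tradd in CD45- cells.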

How the results depend on the processing

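No value of a member changed direction past the threshold under any alternative run. Between the fractions, 4 to 6 members and 7908 to 9806 genes were called under the 9 alternative settings, and 3 to 6 members and 8472 to 9355 genes with 1 library left out. In the Hoil1 and Il4ra comparisons the number of genes called depended on the test, and the cause was not tested. The likelihood ratio test and DESeq2 called 206 and 262 genes (main 5) for the Hoil1 difference between fractions. In CD45+ cells they called 103 and 126 (main 1) for Hoil1 averaged, 66 and 93 (0) within f/f, 51 and 159 (0) within ΔIEC, 201 and 341 (1) for Il4ra and 68 and 160 (0) for the interaction. In CD45- cells they called 135 and 168 (3), 350 and 613 (6), 62 and 138 (1), 143 and 159 (0) and 1223 and 1466 (0) in the same order. Members called were 2 by DESeq2 within f/f in CD45+ cells, 1 by DESeq2 for Il4ra in CD45+ cells, 1 and 2 by the likelihood ratio test and DESeq2 for the CD45+ interaction and 1 by each for the CD45- interaction. With all libraries, the genes called were 1 for the difference between fractions, 2, 1, 1 and 0 in CD45+ cells (Hoil1 averaged, f/f, ΔIEC, Il4ra) and 0, 0 and 0 in CD45- cells (the 3 Hoil1 comparisons). With library totals only they were 2 for the difference between fractions, and 0 for Hoil1 averaged and 0 for Il4ra in CD45+ cells. With RLE factors 1 gene was called for Hoil1 averaged in CD45- cells. Without the filter they were 6 for Hoil1 averaged and 3 within f/f in CD45+ cells, and 11 within f/f and 1 for the interaction in CD45- cells. Without immunoglobulin genes they were 6 and 2 in CD45+ cells (averaged, f/f) and 11 within f/f in CD45- cells. With Xist as a covariate they were 3 for the difference between fractions, 0 for Il4ra in CD45+ cells, and 1 for Hoil1 averaged and 3 within f/f in CD45- cells. With the epithelial score as a covariate 2 were called within f/f in CD45- cells.

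With 1 library left out, genes called ranged from 2 to 211 for the difference between fractions. In CD45+ cells they ranged from 1 to 10 for Hoil1 averaged, 0 to 7 within f/f and 0 to 8 for Il4ra. In CD45- cells they ranged from 1 to 173 for Hoil1 averaged, 0 to 474 within f/f, 0 to 2 within ΔIEC, 0 to 220 for Il4ra and 0 to 1199 for the interaction, where members called ranged from 0 to 1. The counts of 211, 173, 474 and 220 arose without Hoil1-/- f/f library 2 of CD45- cells, which leaves 1 library in that group, assumed to vary like the others, and that of 1199 without Hoil1+/+ ΔIEC library 3. Tnf in CD45- cells had 0 to 114 counts and 0 to 9.11 CPM per library, and the parts of depth and of spread between libraries in its wide intervals were not tested. The labels give no replicate numbers, but ages recur across the fractions of a genotype, and a fit with genotype and age as a replicate block (10 blocks, 6 of them with both fractions) was added after seeing the data. It called 6 members and 7908 genes between the fractions, losing Ripk1 (0.66, adjusted p = 0.0564) and gaining Ripk3 (0.59, adjusted p = 0.0438) and Mlkl (-1.13, adjusted p = 0.0398), and 1 gene and no member for the Hoil1 difference between fractions. Differences between age-matched libraries correlated across genes between fractions at 0.051 to 0.143 in the 4 genotypes, so shared age was not shown to mark a shared mouse or day. Within a fraction no paired analysis was possible because no label ties libraries of different genotypes.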
